A study of Mus musculus with 6 samples.

Results

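Prostaglandin and leukotriene genes, the receptors and enzymes of the eicosanoid lipid mediators, were examined in RNA of sorted lung group 2 innate lymphoid cells (ILC2s). The set was given as 10 symbols (Ptgdr2, Ptgir, Ptger2, Ptger4, Cysltr1, Alox5, Alox5ap, Hpgds, Ptgs2 and Ltc4s) and its members were found by matching those symbols to the gene names of the deposited count table. The table held 8 of the 10 symbols among its 18478 genes. Ptgdr2, the gene of the prostaglandin D2 receptor CRTH2, and Ltc4s, the gene of leukotriene C4 synthase, have no row in the table used here and were not analysed.

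The libraries came from mice labelled CB2 KO, named for a knockout of cannabinoid receptor 2, a receptor of immune cells encoded by Cnr2, and from WT mice, with 3 libraries in each group. Both groups were lung ILC2s of BALB/c mice aged 6 weeks dosed 3 times through the nose with 1 µg of IL-33, an alarmin that activates ILC2s. The sorted cells of both groups were then kept in IL-2 and IL-7, each at 10 ng/mL, over 24 h, so the WT group too had met all 3 cytokines. The series compares the 2 genotypes. The labels describe neither the Cnr2 allele nor the origin of each replicate, whether its own mouse, a pool or a repeat, so the p-values measure the spread between these libraries, which may be technical.

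Eicosanoids are made from arachidonic acid that phospholipases release from membranes. Cyclooxygenases, among them the inducible enzyme encoded by Ptgs2, start the prostanoid branch, which ends in prostaglandin D2, prostaglandin E2, prostacyclin and thromboxane. The 5-lipoxygenase encoded by Alox5 works with its helper protein FLAP, encoded by Alox5ap, to start the leukotriene branch. In ILC2s, prostaglandin D2 and the cysteinyl leukotrienes are known as activating signals, while prostacyclin and prostaglandin E2 act through receptors that raise cyclic AMP and are known to restrain type 2 cytokine production.

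Promoter sequences are shown for the 3 member receptors that couple to cyclic AMP, since these include the receptors with the smallest (Ptgir) and the largest (Ptger2) spread between replicates. They are RefSeq windows on GRCm38.p6, the assembly also called mm10, from 250 bases before to 30 bases after the annotated start, written on the strand of the gene. Ptgir lies at chr7:16906240-16906519 on the plus strand, Ptger2 at chr14:44987861-44988140 on the plus strand and Ptger4 at chr15:5244158-5244437 on the minus strand. Capitals mark matches on either strand to 4 short motifs: the GATA box (AGATAA or TGATAA), the core of the cyclic AMP response element (TGACG), the CCAAT box (CCAAT) and the GC box (GGGCGG).
Ptgir: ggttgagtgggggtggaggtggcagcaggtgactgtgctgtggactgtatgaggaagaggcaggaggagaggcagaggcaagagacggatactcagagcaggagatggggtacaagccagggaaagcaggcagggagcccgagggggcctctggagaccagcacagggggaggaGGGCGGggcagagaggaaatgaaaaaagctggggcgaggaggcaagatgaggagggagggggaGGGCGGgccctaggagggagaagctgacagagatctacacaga
Ptger2: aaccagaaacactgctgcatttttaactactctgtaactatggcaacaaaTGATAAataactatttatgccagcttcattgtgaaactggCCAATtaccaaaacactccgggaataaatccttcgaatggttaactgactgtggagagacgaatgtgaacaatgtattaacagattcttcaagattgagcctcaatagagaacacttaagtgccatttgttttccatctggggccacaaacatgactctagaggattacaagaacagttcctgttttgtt
Ptger4: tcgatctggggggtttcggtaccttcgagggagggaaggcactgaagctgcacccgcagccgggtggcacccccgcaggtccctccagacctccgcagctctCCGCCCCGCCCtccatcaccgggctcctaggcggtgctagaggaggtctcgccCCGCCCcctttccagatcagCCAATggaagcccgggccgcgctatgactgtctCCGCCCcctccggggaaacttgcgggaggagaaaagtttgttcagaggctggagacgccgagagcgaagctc

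The 3 windows differed in base composition. The Ptger4 window was 66.8% G and C and the Ptgir window 62.1%, whereas the Ptger2 window was 37.9%, against a median of 52.5% over the 32851 windows of the RefSeq table. Ptger4 held 4 GC box matches, of which the pair at -148 and -143 from the start share a base, and a CCAAT box at -75. Ptgir held 2 GC box matches, at -76 and -13, and Ptger2 held a GATA box at -200 and a CCAAT box at -160. Of all windows, 17.9% held a GATA box, 36.1% a CCAAT box, 34.7% a GC box and 19.9% the TGACG core, which none of the 3 windows held. Such matches describe the letters of these windows and were not tied to a measurement here.

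Each library held between 17141698 and 21621008 estimated counts. Levels are given as CPM, the count scaled to a common library total, and 3 counts, taken as the upper limit behind a count of 0, were worth 0.139 to 0.175 CPM. Intervals and limits of counts cover counting error alone. Cnr2, the targeted gene, was at 9.24, 1.60 and 3.84 CPM in the libraries labelled CB2 KO replicates 1 to 3, against 9.32, 17.4 and 15.8 CPM in WT replicates 1 to 3 (adjusted p = 0.514 by edgeR). The library labelled CB2 KO replicate 1 was therefore level with the lowest WT library for Cnr2, and it was far from the other libraries along principal component 1, which held 37.6% of the variance. Libraries are called by their labels throughout. All 12 markers of ILC2s were above 0 in all 6 libraries, and all 12 summed to 11290 to 13570 CPM in CB2 KO libraries and 10680 to 11660 CPM in WT libraries. Il5 held most of that sum, and without it the sums were 3555, 3402 and 3556 CPM in CB2 KO replicates 1 to 3, against 3709, 3961 and 3787 CPM in WT replicates 1 to 3, lower in every CB2 KO library than in every WT library. Of the 12, 4 had a positive and 8 a negative log2 fold change and none passed, with Gata3 at a mean of 964 CPM in CB2 KO and 1057 CPM in WT and Il1rl1 at 924 CPM in CB2 KO and 964 CPM in WT. The groups did not overlap for 5 with CB2 KO lower and 1, Il5, with CB2 KO higher, where all genes gave 7.20% and 6.91%. At an unadjusted p under 0.05 by edgeR, 3 were lower (Icos, Klrg1 and Gata3) and 1 higher (Il5), where all genes gave 4.27% and 4.33%. Their log2 fold changes were -0.36, -0.46, -0.13 and 0.30.

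Per length of exon, the receptor genes Ptgir and Cysltr1 were the highest of the 8 measured members and Ptgs2, the gene of cyclooxygenase-2, was the lowest. The levels of the prostacyclin receptor gene Ptgir lay lower in all CB2 KO libraries than in all WT libraries, and those of the prostaglandin E2 receptor gene Ptger2 were higher on average in CB2 KO. None of the 8 members differed between CB2 KO and WT past the threshold of 0.05 by edgeR (quasi-likelihood F test, p-values adjusted by Benjamini-Hochberg over all 14084 genes tested). Of those 14084 genes, 15 passed (0.107%), with 6 higher in CB2 KO (0.0426% of the genes tested) and 9 lower (0.0639%), so a count of 0 among 8 members lies close to the background. All 8 members passed the filter on low counts. At an unadjusted p under 0.05 the count was 1 of 8 members, Ptgir, against 8.60% of all genes in either direction and 4.27% in its own, lower in CB2 KO. DESeq2, which called 2.58% of all genes, and limma-voom also called 0 of 8 after adjustment, with 3 members at an unadjusted p under 0.05 by DESeq2 (11.9% of all genes) and 2 by limma-voom (8.39%). Leaving out the library labelled CB2 KO replicate 1 gave a count of 0 members again, with 8 of all genes called by edgeR. With that library left out, the log2 differences were -0.15 for Ptgir, 0.93 for Ptger2, 0.20 for Ptger4, -0.16 for Cysltr1, -0.22 for Alox5, -0.89 for Alox5ap, 0.06 for Hpgds and -0.49 for Ptgs2. The median log2 fold change, CB2 KO over WT, was -0.21 over the 8 members and -0.000303 over all genes tested, with 6 members negative and 2 positive. For 5 members the 95% interval of the log2 fold change lay within a 2-fold difference in either direction. In RNA of bulk cells, fewer cells of a type and less RNA per cell cannot be told apart.

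**Figure D1:**
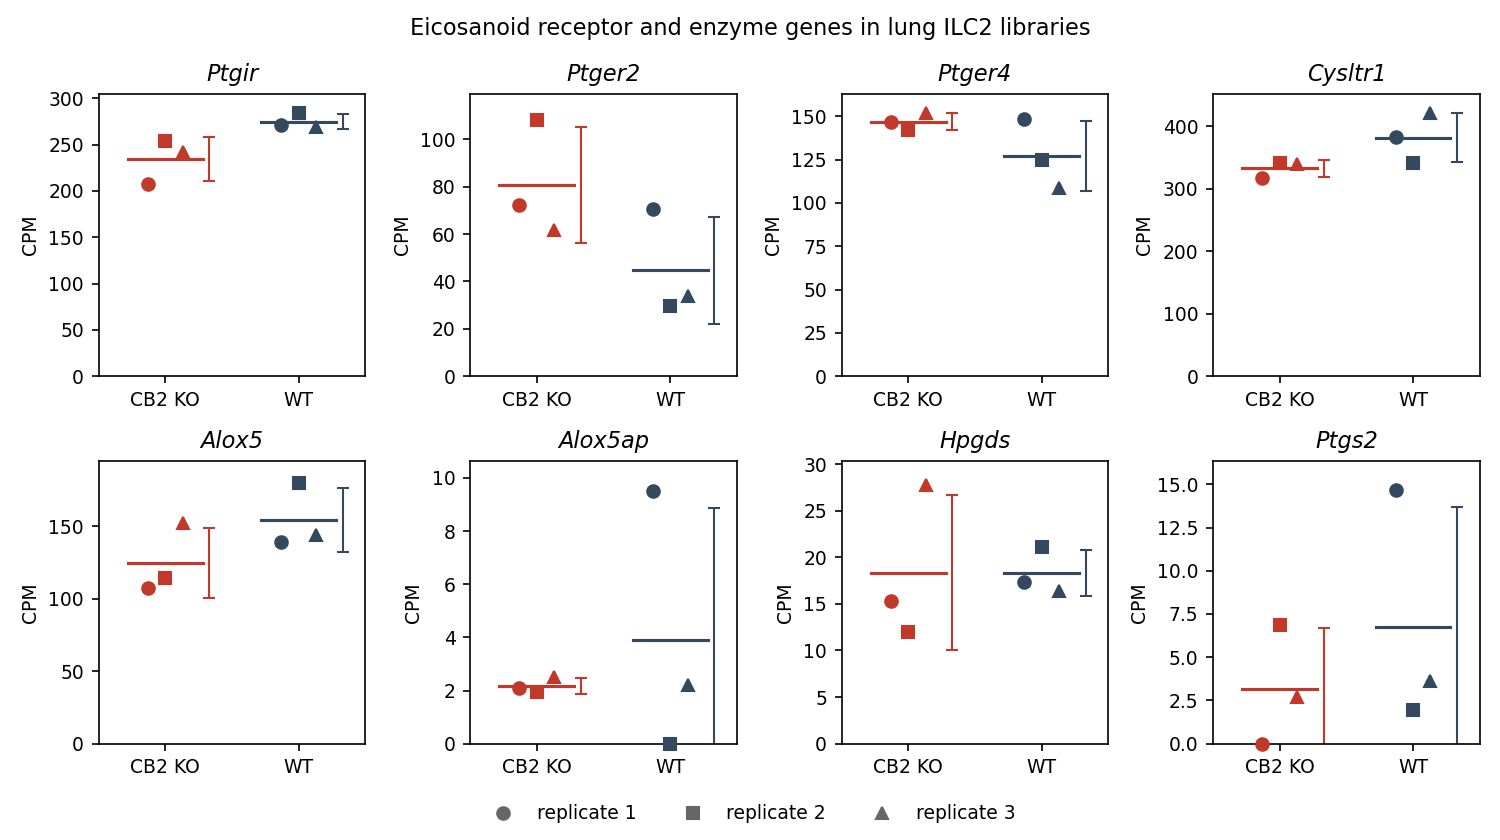
CPM of the 8 measured members in each library; each panel is 1 gene with its own axis from 0, CB2 KO on the left and WT on the right. Symbols give the replicate number, horizontal lines the group mean and the bars beside them the SD (n = 3), cut at 0; Ptgir is the panel in which all CB2 KO values (208 to 253 CPM) lie below all WT values (269 to 284 CPM).

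Among the prostanoid receptors, Ptgir encodes the prostacyclin receptor (chromosome 7, 16906490 to 16910905, plus strand, mm10). It was at 208, 253 and 242 CPM in CB2 KO replicates 1 to 3, against 272, 284 and 269 CPM in WT replicates 1 to 3. Every CB2 KO library lay below every WT library, and the WT libraries were close together. Non-overlapping groups in either direction were found for 14.1% of all genes tested, and in this direction for 7.20%. The means were 234 ± 23.9 CPM in CB2 KO and 275 ± 8.14 CPM in WT (SD, n = 3 each), a log2 difference of -0.23 (SE 0.09, 95% interval -0.45 to -0.0081). This did not pass by edgeR after Benjamini-Hochberg adjustment (adjusted p = 0.573), and the exact permutation p of its CPM, two-sided, was 0.1, which is as low as 3 libraries against 3 can reach. The lowest of the 6 libraries was CB2 KO replicate 1.

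Ptger2, which encodes the prostaglandin E2 receptor EP2 (chromosome 14, 44988195 to 45003820, plus strand), had the largest log2 difference between the groups among the 4 measured receptors. It was at 72.1, 108 and 61.5 CPM in CB2 KO replicates 1 to 3, against 70.4, 29.6 and 33.9 CPM in WT replicates 1 to 3. WT replicate 1 lay within the CB2 KO range, and the other two WT libraries were lower than all CB2 KO libraries. The means were 80.6 ± 24.5 CPM in CB2 KO and 44.6 ± 22.4 CPM in WT (SD, n = 3 each), a log2 difference of 0.85 (SE 0.36, 95% interval -0.0096 to 1.70). It did not pass by edgeR after Benjamini-Hochberg adjustment (adjusted p = 0.583). Without WT replicate 1 the log2 difference was 1.36 (adjusted p = 0.586 by edgeR after adjustment). Without CB2 KO replicate 2, the highest of the 6, it was 0.56 (adjusted p = 0.713 by edgeR after adjustment).

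The spread of Ptger2 between replicates was wide for its level. Its within-group SD on the log2 CPM scale exceeded that of 93.1% of the 4401 genes with a mean CPM within 2-fold of its own. Counting error was small beside it, since the 1511 counts of WT replicate 1 have an exact 95% Poisson interval of 1436 to 1589 and the 608 counts of WT replicate 2 one of 561 to 658. Exons of Ptger2 overlap the opposite-strand genes Gm17173 (246 bases) and Gm49364 (144 bases), so its count is uncertain where strand was not used. Those neighbours held at most 47 and 106 counts in any library.

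Ptger4 encodes the other prostaglandin E2 receptor that raises cyclic AMP, EP4 (chromosome 15, 5206661 to 5244187, minus strand). It was at 147, 142 and 152 CPM in CB2 KO replicates 1 to 3, against 149, 125 and 108 CPM in WT replicates 1 to 3. The CB2 KO libraries were close together and WT replicate 1 lay among them. The log2 difference was 0.20 (SE 0.13, 95% interval -0.11 to 0.51; adjusted p = 0.735 by edgeR after Benjamini-Hochberg adjustment). Ptger4 was above Ptger2 per length of exon in all 6 libraries, at a mean of 20.6 CPM per kb against 12.1 CPM per kb for Ptger2. Of its exons, 1015 bases overlap the opposite-strand pseudogene Gm15937 and 82 bases overlap Ttc33, so its count is also uncertain where strand was not used.

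Cysltr1, the gene of the cysteinyl leukotriene receptor CysLT1 (chromosome X, 106574346 to 106603679, minus strand), had the most counts of the members. It was at 317, 342 and 340 CPM in CB2 KO replicates 1 to 3, against 384, 342 and 421 CPM in WT replicates 1 to 3. WT replicate 2 was level with the upper CB2 KO libraries and the other two WT libraries were above all of them. The means were 333 ± 13.7 CPM in CB2 KO and 382 ± 39.8 CPM in WT (SD, n = 3 each), a log2 difference of -0.20 (SE 0.09, 95% interval -0.41 to 0.02). It did not pass by edgeR after Benjamini-Hochberg adjustment (adjusted p = 0.62).

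Among the leukotriene enzymes, Alox5 (chromosome 6, 116410077 to 116461178, minus strand) encodes 5-lipoxygenase. It was at 108, 114 and 152 CPM in CB2 KO replicates 1 to 3, against 139, 180 and 144 CPM in WT replicates 1 to 3. CB2 KO replicate 3 lay within the WT range and the other two CB2 KO libraries below it. The means were 125 ± 24.1 CPM in CB2 KO and 154 ± 22.3 CPM in WT (SD, n = 3 each), a log2 difference of -0.32 (SE 0.17, 95% interval -0.72 to 0.08). The adjusted p was 0.658 by edgeR after Benjamini-Hochberg adjustment.

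Alox5ap (chromosome 5, 149264767 to 149288153, plus strand), the gene of FLAP, was low and uneven. It had 42.0, 41.0 and 43.0 estimated counts in CB2 KO replicates 1 to 3, against 204, 0 and 38.9 in WT replicates 1 to 3. The 3 CB2 KO libraries and WT replicate 3 were alike, WT replicate 1 was far higher and WT replicate 2 had none, which allows up to 0.145 CPM there. The CPM were 2.17 ± 0.293 in CB2 KO and 3.90 ± 4.97 in WT (SD, n = 3 each). The log2 difference of -0.92 (SE 0.98, 95% interval -3.16 to 1.33; adjusted p = 0.852 by edgeR) turned to 1.07 without WT replicate 1, so 1 library set its sign. An annotated antisense gene, Gm19719, overlaps 189 bases of its exons.

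Hpgds, the gene of hematopoietic prostaglandin D synthase (chromosome 6, 65117293 to 65144908, minus strand), was at 15.3, 11.98 and 27.7 CPM in CB2 KO replicates 1 to 3, against 17.4, 21.1 and 16.4 CPM in WT replicates 1 to 3. The CB2 KO range enclosed the WT range. The means were nearly equal, at 18.3 ± 8.30 CPM in CB2 KO and 18.3 ± 2.48 CPM in WT (SD, n = 3 each), with a log2 difference of -0.05 (SE 0.36, 95% interval -0.90 to 0.81; adjusted p = 0.982 by edgeR). The sign turned when CB2 KO replicate 1 (0.06), CB2 KO replicate 2 (0.20) or WT replicate 2 (0.07) was left out.

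Ptgs2, the gene of cyclooxygenase-2 (chromosome 1, 150100031 to 150108227, plus strand), had 0, 146 and 46 counts in CB2 KO replicates 1 to 3, against 315, 40 and 64 in WT replicates 1 to 3. The library labelled CB2 KO replicate 1 had no count, which allows up to 0.151 CPM, and WT replicate 1 had the most. The CPM were 3.19 ± 3.47 in CB2 KO and 6.75 ± 6.91 in WT (SD, n = 3 each). The log2 difference was -1.10 (SE 1.01, 95% interval -3.47 to 1.28; adjusted p = 0.825 by edgeR after Benjamini-Hochberg adjustment). Leaving out CB2 KO replicate 2 made it -2.50, and leaving out WT replicate 1 turned it to 0.26. WT replicate 1 was the highest WT library for Ptgs2, Alox5ap, Ptger2 and Ptger4, and another WT library was the highest for Ptgir, Cysltr1, Alox5 and Hpgds. The share over all genes was not computed.

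Levels can be compared between genes once divided by the length of their annotated exons. On the scale of mean CPM per kb over all 6 libraries, the order of the members was Ptgir at 76.4, Cysltr1 at 69.6, Alox5 at 34.0, Ptger4 at 20.6, Ptger2 at 12.1, Hpgds at 2.85, Alox5ap at 2.14 and Ptgs2 at 1.08. The ranges over libraries overlapped between Ptgir and Cysltr1, between Ptger4 and Ptger2, and among Hpgds, Alox5ap and Ptgs2. They did not overlap between Cysltr1 and Alox5, between Alox5 and Ptger4, or between Ptger2 and Hpgds. With the longest transcript as length in place of all exons, Alox5 was at 30.1 to 50.3 and Ptger4 at 28.8 to 40.2 CPM per kb over the libraries, so these 2 then overlapped. Ptgir stood above 93.1% of the tested genes on this scale, Cysltr1 above 92.3%, Alox5 above 84.6%, Ptger4 above 76.5% and Ptger2 above 65.4%. Hpgds stood above 34.1%, Alox5ap above 29.1% and Ptgs2 above 18.1%. The 4 measured receptors and Alox5 were therefore in the upper part of the range of tested genes, and the other members in the lower part.

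**Figure D2:**
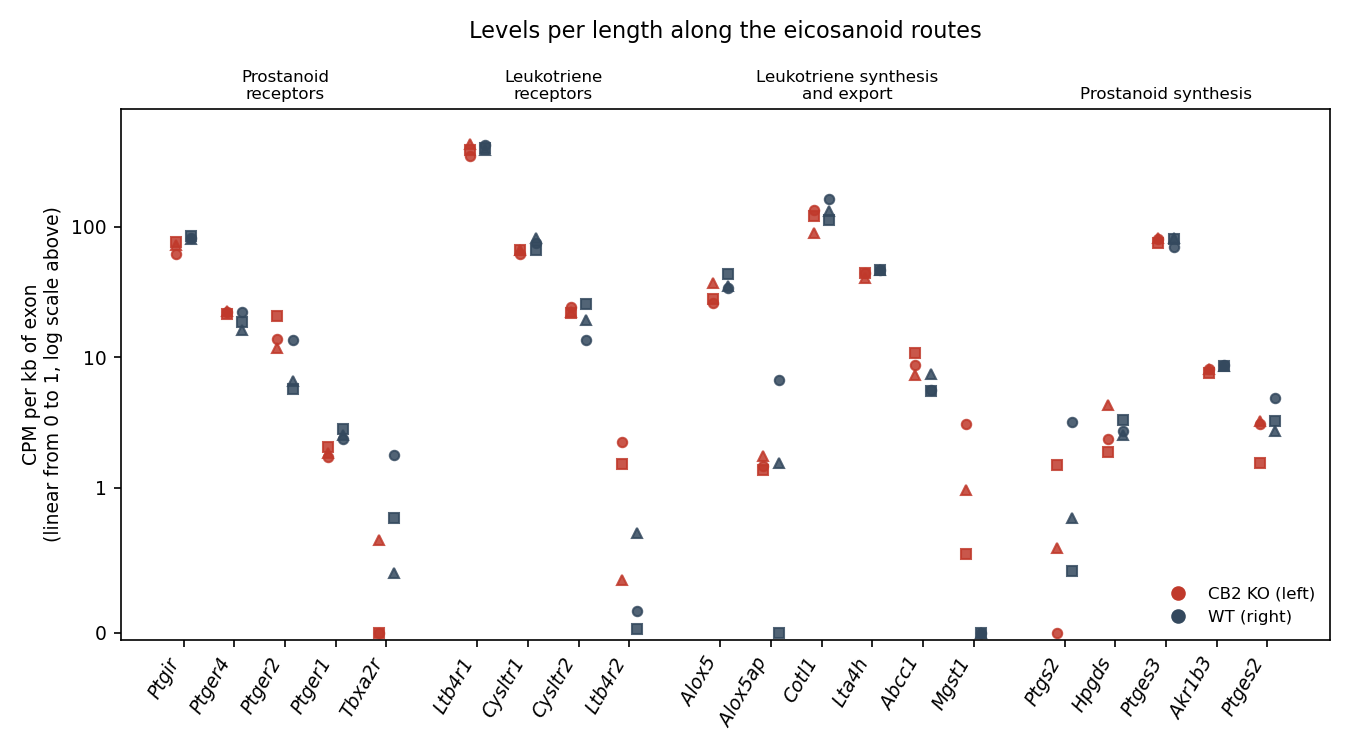
Level per kb of exon (CPM per kb, linear from 0 to 1 and log scale above) of members and further genes of the same routes, 1 point per library, with CB2 KO left and WT right of each gene and circles, squares and triangles for replicates 1 to 3. Ltb4r1 (mean 398 CPM per kb) stands above Ptgir (76.4) and Cysltr1 (69.6), and Ptgs2 (1.08) is near the bottom.

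Further genes of the pathway were read from 7 lists with 72 entries, of which 42 were in the table and 39 were tested. None of the 39 passed by edgeR after Benjamini-Hochberg adjustment, against 0.107% of all genes; limma-voom called 0 and DESeq2 called 1. At an unadjusted p under 0.05, 6 were higher and 0 lower in CB2 KO, where all genes gave 4.33% higher and 4.27% lower. The 6 were Pla2g4a, Ptgr2, Cbr1, Abcc1, Mgst1 and Ltb4r2. Of these, Pla2g4a and Mgst1 passed the filter on low counts through the CB2 KO libraries, so their place in this count is a description. Counted in either direction together, the 6 became 1 without WT replicate 1, 3 without WT replicate 2 and 3 without CB2 KO replicate 2. With the replicate block the count was 2. It was 7 when replicate 3 of either group was dropped, and 6 without CB2 KO replicate 1. These counts do not separate higher from lower and need not hold the same genes. Without CB2 KO replicate 3, Tbxa2r and Alox8, both lower in CB2 KO, had smaller adjusted p (0.515 and 0.524 by edgeR) than Cbr1 (0.558). Over all genes, 1211 of 14084 were under 0.05 in the main fit. This became 1021 of 14864 after dropping WT replicate 1 and 1120 of 14084 with the block. The median log2 fold change was 0.02, with 21 genes positive and 18 negative. The groups did not overlap for 4 genes with CB2 KO higher (Pla2g4a, Ptgr2, Cbr1 and Mgst1) and 3 with CB2 KO lower (Akr1b3, Ptger1 and Lta4h), where all genes gave 6.91% and 7.20%.

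Receptors for leukotrienes included Ltb4r1, the gene with the highest level per kb of exon among the pathway genes with a known exon length. It encodes the leukotriene B4 receptor BLT1 and was at 542 ± 53.9 CPM in CB2 KO and 568 ± 25.1 CPM in WT (SD, n = 3 each), or 389 CPM per kb in CB2 KO and 407 CPM per kb in WT. Cysltr2, which encodes the other cysteinyl leukotriene receptor, was at 65.7 ± 3.63 CPM in CB2 KO and 56.1 ± 17.2 CPM in WT. Ltb4r2 was at 8.35, 5.66 and 1.34 CPM in CB2 KO replicates 1 to 3, against 0.559, 0.0975 and 2.55 CPM in WT replicates 1 to 3. Ltb4r2 had a log2 difference of 2.42 (SE 0.95; adjusted p = 0.512 by edgeR after Benjamini-Hochberg adjustment), and its groups overlapped. Without WT replicate 3, the highest WT library, the log2 difference was 3.97, and leaving out any other library gave 1.86 to 2.81.

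In the leukotriene branch, Lta4h, which encodes the hydrolase that makes leukotriene B4, was at 262 ± 12.2 CPM in CB2 KO and 285 ± 1.87 CPM in WT (SD, n = 3 each). Its groups did not overlap, but the log2 difference was -0.12 (SE 0.07; adjusted p = 0.704 by edgeR after Benjamini-Hochberg adjustment). Cotl1, whose product binds 5-lipoxygenase as well as actin, was at 184 ± 36.7 CPM in CB2 KO and 218 ± 41.4 CPM in WT. Abcc1, a transporter gene whose product exports leukotriene C4, was at 132, 162 and 110 CPM in CB2 KO replicates 1 to 3, against 84.3, 83.8 and 113 CPM in WT replicates 1 to 3. WT replicate 3 lay just above the lowest CB2 KO library, and the log2 difference for Abcc1 was 0.55 (SE 0.19; adjusted p = 0.484 by edgeR after adjustment).

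Mgst1, which encodes a microsomal glutathione transferase, was the gene that DESeq2 called. It had 125, 23 and 34 counts in CB2 KO replicates 1 to 3, against 0 in each WT replicate, and CB2 KO replicate 1 held most of them. With no count in WT, it passed the filter on low counts through the CB2 KO libraries alone, so its p-values and its place among the 6 genes are a description. Set against the limit of 3 counts in each WT library, the CB2 KO mean of 3.09 CPM was at least 20.5-fold higher. Without CB2 KO replicate 1 the mean was 1.53 CPM and the bound 10.2-fold. The adjusted p was 0.469 by edgeR after Benjamini-Hochberg adjustment and 4.44e-05 with DESeq2. Mgst2 and Mgst3, of the same family, did not pass either.

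On the prostanoid side, the cytosolic prostaglandin E synthase and co-chaperone gene Ptges3 was at 176 ± 8.16 CPM in CB2 KO and 172 ± 15.3 CPM in WT (SD, n = 3 each). Akr1b3, an aldose reductase gene with prostaglandin F synthase activity, was at 66.6 ± 2.72 CPM in CB2 KO and 72.3 ± 0.943 CPM in WT, and Ptges2 at 13.2 ± 4.68 CPM in CB2 KO and 18.3 ± 5.598 CPM in WT. Ptgs1, which encodes the constitutive cyclooxygenase, was at 0, 3.21 and 0 CPM in CB2 KO replicates 1 to 3, against 7.92, 9.02 and 0 CPM in WT replicates 1 to 3. It was chosen after its values were seen, as the partner of Ptgs2. Both cyclooxygenase genes were thus at 0 in the library labelled CB2 KO replicate 1. Of the other prostanoid receptors, Ptger1 was at 10.3 ± 0.952 CPM in CB2 KO and 14.0 ± 1.201 CPM in WT, and its count is uncertain if strand was not used. Tbxa2r, the thromboxane receptor gene, was at 0.407 ± 0.705 CPM in CB2 KO and 1.90 ± 1.35 CPM in WT. With 0 CPM in CB2 KO replicates 1 and 2, it passed the filter on low counts through the WT libraries, so its direction is a description.

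Genes of prostanoid transport and breakdown had 6 positive and 1 negative log2 fold change among 7 tested, with none past the threshold. Ptgr2, which encodes a prostaglandin reductase, was at 68.9, 68.2 and 55.1 CPM in CB2 KO replicates 1 to 3, against 34.9, 44.2 and 51.7 CPM in WT replicates 1 to 3. Cbr1, which encodes a carbonyl reductase that acts on prostaglandin E2, was at 34.7, 24.2 and 26.2 CPM in CB2 KO replicates 1 to 3, against 16.8, 19.0 and 14.3 CPM in WT replicates 1 to 3. All CB2 KO libraries were above all WT libraries for both genes. The log2 difference was 0.58 (SE 0.20, adjusted p = 0.479) for Ptgr2 and 0.76 (SE 0.27, adjusted p = 0.486) for Cbr1, by edgeR after Benjamini-Hochberg adjustment. Exons of Ptgr2 overlap the opposite-strand gene Gm47484 by 1896 bases. The transporter gene Slco3a1 was at 159 ± 17.6 CPM in CB2 KO and 147 ± 23.3 CPM in WT, and Zadh2, which encodes a further prostaglandin reductase, at 28.01 ± 9.995 CPM in CB2 KO and 30.2 ± 20.2 CPM in WT (SD, n = 3 each).

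Of the phospholipase and related lipase genes, Plaat3 was at 70.2 ± 3.66 CPM in CB2 KO and 76.6 ± 7.01 CPM in WT, Abhd16a at 59.7 ± 15.5 CPM in CB2 KO and 61.5 ± 7.46 CPM in WT, and Pla2g12a at 52.6 ± 5.57 CPM in CB2 KO and 51.6 ± 3.32 CPM in WT (SD, n = 3 each). Pla2g4a encodes the cytosolic phospholipase that supplies arachidonic acid in many leukocytes. It had 16, 75 and 38 counts in CB2 KO replicates 1 to 3, against 0, 0 and 14 in WT replicates 1 to 3. In CPM the lowest CB2 KO library, at 0.795, was just above the highest WT library, at 0.793. With no count in WT replicates 1 and 2, it passed the filter on low counts through the CB2 KO libraries. Its p-values, its place among the genes at an unadjusted p under 0.05 and its lack of overlap are therefore a description. Its log2 difference of 3.20 (SE 1.23) did not pass by edgeR after Benjamini-Hochberg adjustment (adjusted p = 0.53). It was 8.47 without WT replicate 3, which left no WT count to fit against, and 2.56 to 3.61 without any other library. Of other lipoxygenase and epoxide enzyme genes, Alox8 was at 3.55 ± 4.02 CPM in CB2 KO and 10.0 ± 4.80 CPM in WT, and Ephx1 at 1.498 ± 1.33 CPM in CB2 KO and 1.44 ± 1.72 CPM in WT.

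**Figure D3:**
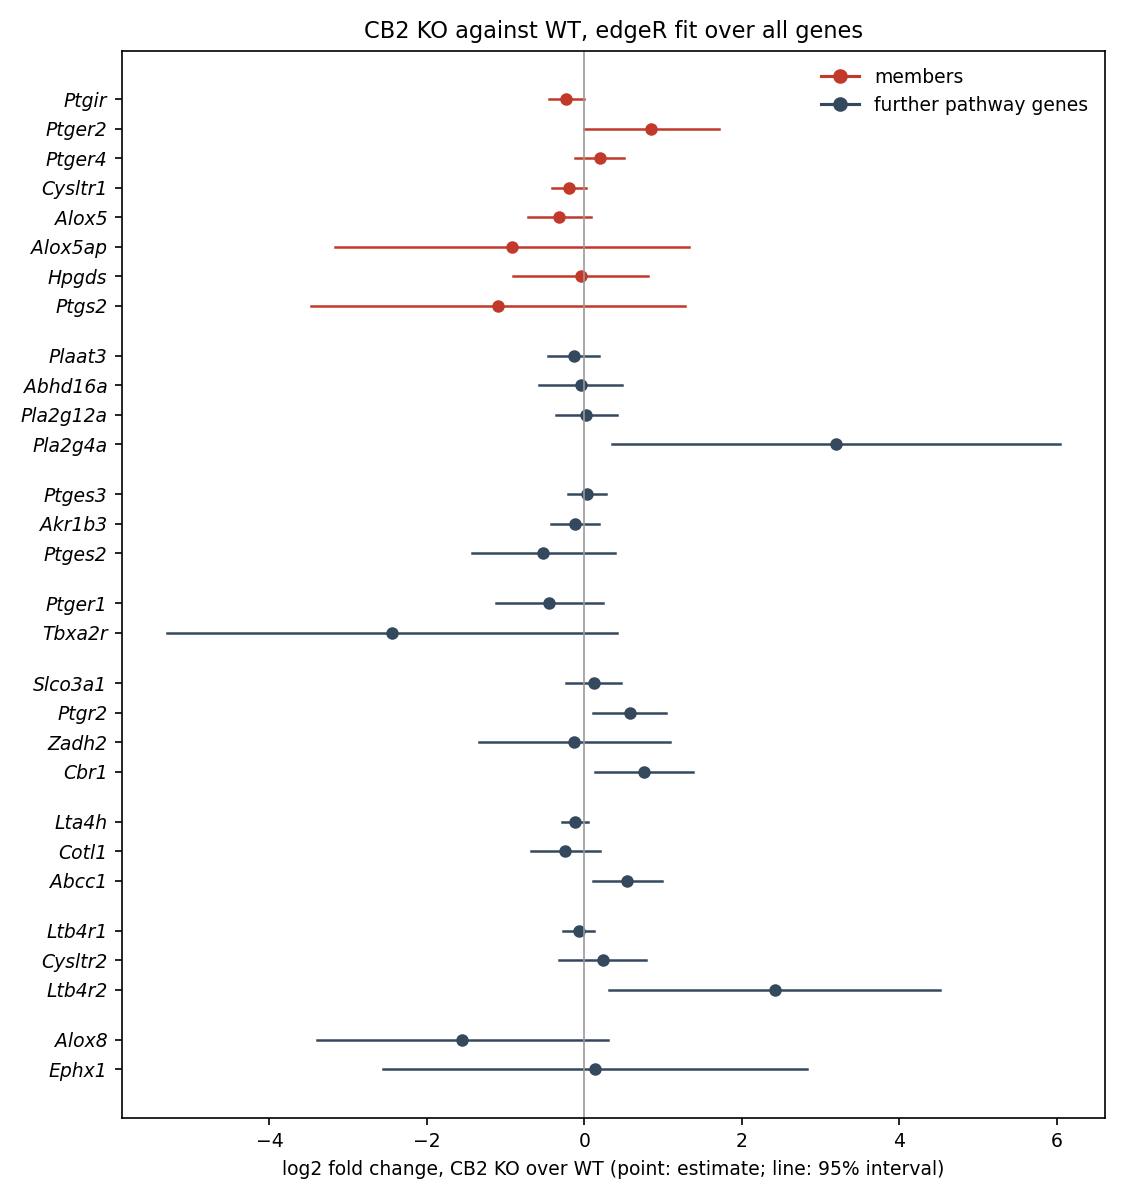
Log2 fold change of CB2 KO over WT (points) with 95% intervals (lines) from the edgeR fit over all genes, for the 8 measured members (red) and 21 further pathway genes in the groups of the text (blue); Mgst1, at 0 in all WT libraries, is not drawn. Intervals are narrow for Ptgir, Cysltr1 and Ltb4r1 and wide for Alox5ap and Ptgs2, and Ptger2 is centred at 0.85.

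Eicosanoid genes are also expressed by macrophages and mast cells, so markers of these cells were summed in each library. The 10 macrophage, monocyte and dendritic cell markers found in the table summed to 154 to 182 CPM in CB2 KO libraries, against 14.4 to 60.2 CPM in WT libraries. Chil3, a macrophage chitinase-like gene, made up most of the sum in each CB2 KO library. Of the 15 listed markers 10 were in the table, 3 of them above 0 in all libraries. Mrc1, Siglecf and Flt3 were at 0 in all WT libraries and in all but 1 CB2 KO library. Cd14 went the other way, at 0 in all CB2 KO libraries and at 2.33 CPM in WT replicate 1 alone. The 6 tested all had a positive log2 fold change and none passed, with the lowest adjusted p, 0.0693 for Lyz2, by edgeR after Benjamini-Hochberg adjustment. Cd14, Mrc1, Siglecf and Flt3 did not pass the filter on low counts. Itgax, at 0 CPM in WT replicates 1 and 3, passed it through the CB2 KO libraries. The shared direction of the 6 is therefore a description. Cd68 and Fcgr3 differed little, with log2 fold changes of 0.17 (adjusted p = 0.934 by edgeR) and 0.34 (adjusted p = 0.963 by edgeR). The mast cell and basophil markers in the table, without Kit, which some ILC2s also express, summed to 117, 64.0 and 104 CPM in CB2 KO replicates 1 to 3, against 54.7, 31.9 and 29.0 CPM in WT replicates 1 to 3. With Kit the sums were 204.5 to 254.7 CPM in CB2 KO libraries and 215.8 to 271.5 CPM in WT libraries. Of 13 listed, 11 were in the table and 6 were above 0 in all libraries, and Ms4a2 was at 0 in all WT libraries. Of the 9 tested, 7 had a positive and 2 a negative log2 fold change, and none passed. Tpsab1, at 0 CPM in WT replicates 2 and 3, passed the filter on low counts through the CB2 KO libraries. Its place among the 7 is therefore a description. The groups did not overlap for 3 of the 9 with CB2 KO higher and for 1, Kit, with CB2 KO lower, where all genes gave 6.91% and 7.20%. The genes with a negative log2 fold change were Kit, at 134 ± 41.6 CPM in CB2 KO and 198 ± 16.9 CPM in WT, and Mitf, at 1.49 ± 1.44 CPM in CB2 KO and 3.30 ± 1.93 CPM in WT. Cpa3, a mast cell protease gene, was at 21.9 ± 6.82 CPM in CB2 KO and 15.3 ± 4.88 CPM in WT, and the tryptase gene Tpsb2 at 23.3 ± 8.41 CPM in CB2 KO and 2.29 ± 0.937 CPM in WT (SD, n = 3 each).

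The sums of macrophage markers and of mast cell markers without Kit were thus higher in CB2 KO, as were the means of Ptger2 and Ptger4 among the members, while the means of Ptgir, Cysltr1, Alox5, Alox5ap and Ptgs2 were lower in CB2 KO. Among the further genes 21 of 39 had a positive log2 fold change, Mgst1, Pla2g4a and Ltb4r2 among them, and 18 a negative one, Ptgs1, Tbxa2r and Alox8 among them. The part of such cells in the values of these genes was not tested. T cell markers summed to 199 to 221 CPM in CB2 KO libraries, against 189 to 200 CPM in WT libraries, with Trac at or under 2.22 CPM in every library. Trbc1 and Trbc2 made up most of that sum. Of 5 tested, 4 had a positive and 1, Trbc2, a negative log2 fold change, and none passed. All CB2 KO libraries were above all WT libraries for Trbc1 and for Cd3g, the latter at 26.1 ± 2.53 CPM in CB2 KO and 14.0 ± 3.93 CPM in WT. Over all genes tested, 6.91% had no overlap in this direction. Eosinophil and neutrophil markers summed to at most 6.09 CPM in CB2 KO libraries and 6.34 CPM in WT libraries, from 3 of 9 listed genes. B cell and NK cell markers summed to 12.9 to 14.9 CPM in CB2 KO libraries and 10.9 to 17.3 CPM in WT libraries. Epithelial, endothelial and platelet markers summed to 49.97 to 62.8 CPM in CB2 KO libraries and 50.8 to 148 CPM in WT libraries.

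**Figure D4:**
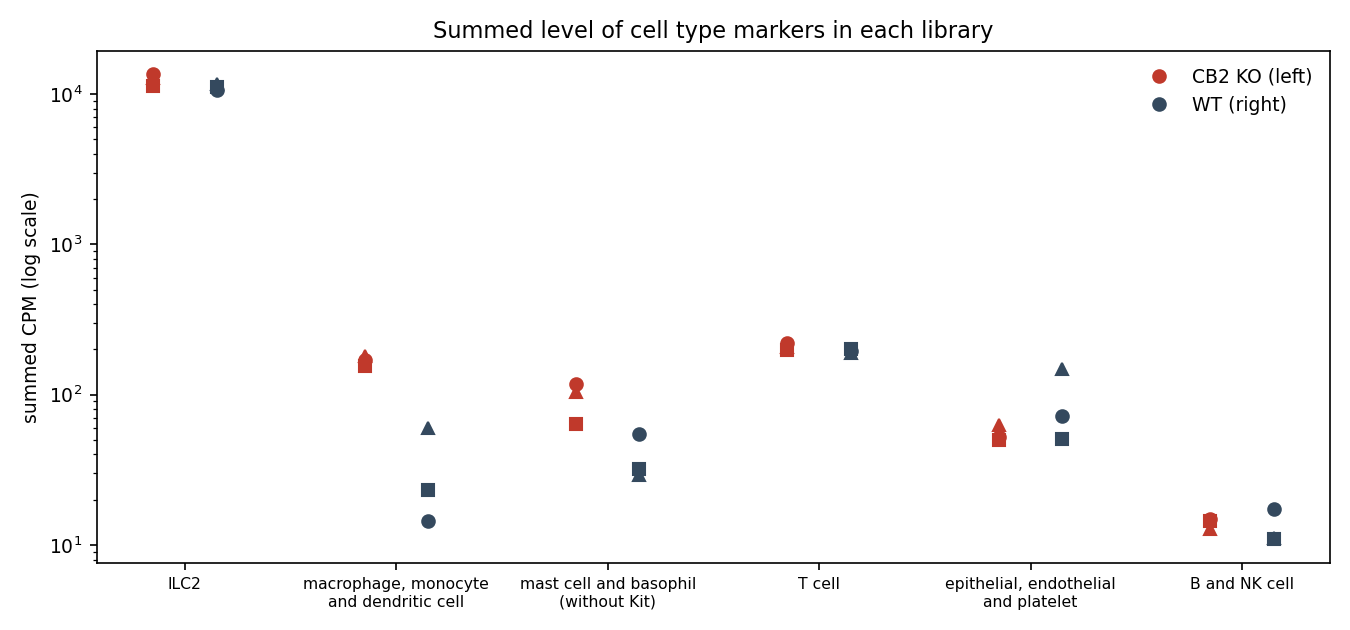
Summed CPM (log scale) of lists of cell type markers in each library, CB2 KO left and WT right of each list, with circles, squares and triangles for replicates 1 to 3. The eosinophil and neutrophil list is not drawn, and the mast cell and basophil list is drawn without Kit. With Kit (not drawn) its sums overlap, at 204.5 to 254.7 CPM in CB2 KO libraries and 215.8 to 271.5 CPM in WT libraries. The macrophage, monocyte and dendritic cell sum lies at 154 to 182 CPM in CB2 KO libraries, above the 14.4 to 60.2 CPM of WT libraries, while ILC2 markers sum to 11290 to 13570 CPM in CB2 KO libraries and 10680 to 11660 CPM in WT libraries. Il5 holds most of the ILC2 sum, and without it (not drawn) the sum is 3402 to 3556 CPM in CB2 KO libraries and 3709 to 3961 CPM in WT libraries.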

How the data were processed

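RNA of sorted lung ILC2s was sequenced in 3 CB2 KO and 3 WT libraries, grouped by sample title. The authors deposited an estimated count per gene and library from Partek's expectation-maximization quantification, per the file names; the submitters' processing notes name CASAVA 1.8.2, STAR 3.5.3, Partek and mm10, and the strand setting was not given in the sources used here. They also deposited a normalized signal, in which 1 was added to every estimated count before scaling by a library factor; limma was run on its log2 as an alternative.

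Estimated counts were rounded and tested with edgeR 4.0.16 in R 4.3.3 (TMM, filterByExpr, glmQLFit with robust=TRUE and legacy=FALSE, Benjamini-Hochberg adjustment, threshold 0.05), leaving 14084 of 18478 genes. CPM use TMM-scaled library sizes, standard errors are the log2 fold change over the root of F, and intervals use the test's degrees of freedom. DESeq2 1.42.0 and limma 3.58.1 served as alternatives, with other scalings, filters, the replicate block and leaving out each library. The sum of ILC2 markers without Il5 was added after seeing the data. Kit was on the list of mast cell and basophil markers as planned, and the plan names no sum without it. The workflow was tested on simulated data. Exon lengths, gene positions and overlaps came from GENCODE M21. Members and lists were chosen with earlier results of these data known. All members are named. Of each further list the text names up to 3 genes with the highest mean CPM and up to 2 with the smallest unadjusted p under 0.05. Zadh2 was matched under an older symbol of Ptgr3.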

Additional observations from a re-analysis of the deposited data

How the results depend on the processing

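Across 16 alternatives (15 for Alox5ap, which a mean count of at least 100 removed), no member passed the threshold, and their smallest adjusted p was 0.235. Ptgir, Ptger2, Ptger4, Cysltr1 and Alox5 kept their direction throughout. The sign of Alox5ap turned with limma-voom (1.44) and with the authors' normalized signal (1.11), and leaving out 1 library gave -1.52 to 1.07. The sign of Hpgds turned with legacy=TRUE (0.0021) and DESeq2 (0.0092), and leaving out 1 library gave -0.43 to 0.20. Leaving out 1 library gave -2.50 to 0.26 for Ptgs2, -0.27 to 0.13 for Abhd16a, -0.041 to 0.11 for Pla2g12a, -0.041 to 0.079 for Ptges3, -0.012 to 0.22 for Slco3a1, -0.50 to 0.59 for Zadh2 and -0.51 to 1.60 for Ephx1. With no change of sign it gave -8.32 to -1.70 for Tbxa2r and -2.79 to -0.94 for Alox8. The -8.32 came without CB2 KO replicate 3, which left no CB2 KO count of Tbxa2r to fit against. Zadh2 also turned with limma-voom (0.022) and the authors' normalized signal (0.016). These are log2 fold changes, and the cause was not tested.

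Over all genes the count of 15 became 35 with a mean count of at least 100, 363 with DESeq2 and 3 with the replicate block, and 3 to 8 without any 1 library. DESeq2 called 1 of the further pathway genes, Mgst1. Deviations of same-numbered libraries correlated at 0.07, 0.03 and 0.02, and 3 of 6 libraries matched their own number best, so the replicate numbers were not taken to pair the libraries. With the longest transcript as length, Ptger4 was at 36.4, Alox5 at 39.0 and Hpgds at 4.71 CPM per kb, and Alox5 and Ptger4 overlapped. Alox5ap and Ptgs2 were each at 0 in 1 library, where counting error allows 3 counts.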
